A study of Homo sapiens with 4 samples.

Results

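Internal transcribed spacer 1 (ITS1) is the stretch of the 45S rRNA precursor between 18S and 5.8S rRNA. Its members here were the 1077 positions from nt 5524 to 6600 of the precursor (RNA45SN5 in RefSeq, length 13357 nt), of 15984 rRNA positions in all. HEK293T cells, a human embryonic kidney line carrying the SV40 large T antigen, overexpressed Flag-SIRT7 stably and were used at passages 10 to 15. SIRT7 is an NAD-dependent deacylase found mainly in the nucleolus. Lysates were separated into cytosolic and nuclear fractions, the tagged protein was bound to anti-Flag gel, and its associated RNA was sequenced, with 2 libraries from each fraction. All 4 libraries carried the same construct, and no input RNA or mock capture was analysed here, which leaves recovery without a measure of enrichment. The question addressed was which parts of ITS1 were recovered with SIRT7 in each fraction.

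Ribosomal DNA lies in repeat arrays on the short arms of the acrocentric chromosomes and is transcribed in the nucleolus as a single precursor. Cleavage within ITS1 separates the precursors of the small and the large ribosomal subunit. In human cells the cut at site 2, nearer 5.8S, makes this separation, and a second cut at site E, a short way past the end of 18S, leaves the 18S-E precursor. That precursor keeps a short piece of ITS1, is exported, and is cut at site 3 by the endonuclease NOB1 in the cytoplasm to give the 3' end of mature 18S.

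The borders of the stretch were checked by sequence. The base before its first nucleotide was the last of the 18S terminus, and the bases after its last nucleotide began 5.8S. These sequences are shown first because the largest change in depth within ITS1 lay at the 18S border. In the first, nt 5504 to 5563 of the precursor, capitals mark nt 1 to 6 of ITS1, and in the second, nt 6561 to 6620, capitals mark the first 20 nt of 5.8S.
18S and ITS1: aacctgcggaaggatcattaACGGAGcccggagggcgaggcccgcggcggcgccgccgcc
ITS1 and 5.8S: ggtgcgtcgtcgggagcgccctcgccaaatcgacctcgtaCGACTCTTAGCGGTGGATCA

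The windows with the largest differences between the fractions are shown next, at nt 101 to 200 and nt 401 to 600 of ITS1 (precursor nt 5624 to 5723 and 5924 to 6123). Capitals mark nt 557 to 569, the span between the deepest points of the nuclear libraries away from the borders.
nt 101 to 200: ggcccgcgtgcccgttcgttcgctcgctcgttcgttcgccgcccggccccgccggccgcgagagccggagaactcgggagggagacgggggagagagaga
nt 401 to 600: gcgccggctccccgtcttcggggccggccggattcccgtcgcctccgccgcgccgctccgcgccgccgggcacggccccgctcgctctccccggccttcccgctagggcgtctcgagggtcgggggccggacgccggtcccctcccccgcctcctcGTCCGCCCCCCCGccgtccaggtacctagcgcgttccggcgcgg

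The last pair shows a fall and a gap in depth. In nt 62 to 101 of ITS1 (precursor nt 5585 to 5624) capitals start after nt 81, the border scored for the third steepest fall. In nt 733 to 859 (precursor nt 6256 to 6382) capitals mark nt 753 to 839, where depth was 0 in every library. All sequences are those of the reference that the deposited file lists.
nt 62 to 101: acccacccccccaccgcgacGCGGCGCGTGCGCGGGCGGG
nt 733 to 859: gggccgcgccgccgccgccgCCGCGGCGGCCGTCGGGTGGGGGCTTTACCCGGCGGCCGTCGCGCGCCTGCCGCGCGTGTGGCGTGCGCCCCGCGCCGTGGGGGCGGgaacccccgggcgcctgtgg

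ITS1 was 79.9% G+C, with 40.02% G and 39.93% C, close to the 79.3% of the 5' external transcribed spacer (5'ETS, the leader of the precursor) and below the 83.1% of ITS2 (between 5.8S and 28S) and the 84.0% of the 3'ETS (the trailer). The neighbouring 18S had 56.1% and 5.8S 57.3%. None of its 1053 sequences of 25 nt occurred again on either strand of the reference sequences in the file.

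Depth, the number of reads covering a position, was summed over all positions to 3319051685 and 3158724762 in the cytosolic libraries, against 3384088983 and 3021350782 in the nuclear ones. Values below are relative depth in ppm of the mean depth of the same library. They are multiples of that mean, not shares of the reads, and depend on all rRNA reads of the library. The labels do not say whether the libraries of a fraction came from separate cultures, so p-values speak only for these libraries. Those of limma also borrow spread from the other regions or windows. Mitochondrial 12S and 16S rRNA were 59.4 and 136.3 times higher in the nuclear libraries. They held on average 0.0213% and 0.00231% of cytosolic depth, against 1.25% and 0.311% of nuclear depth. Their part in the ITS1 differences was not tested. Fewer precursor molecules and fewer reads per molecule cannot be told apart in such data.

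ITS1 as a whole rose in the nuclear libraries while remaining a minute share of the reads. It held 0.000342% and 0.000443% of the depth in the cytosolic libraries, against 0.000786% and 0.000898% in the nuclear ones, so the fractions did not overlap. Per position this was a mean depth of 10.6 and 12.98 reads in the cytosol, against 24.7 and 25.2 in the nucleus. The fold was 2.16 (95% interval 1.51 to 3.09, n = 2 per fraction), with a log2 difference of 1.11 (SE 0.19) and an adjusted p of 0.00748 in limma over the 10 rRNA regions. Of those regions 40.0% were called higher and 10.0% lower, so a call upward was common. The exact permutation p of the percentages was 0.333, the smallest that 2 libraries against 2 allow. ITS1 was called higher also with each library left out in turn, at log2 differences of 0.93 to 1.29 and adjusted p-values in limma of 0.0227 to 0.04999, the highest, without cytosolic replicate 1, just under the threshold of 0.05.

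**Figure D1:**
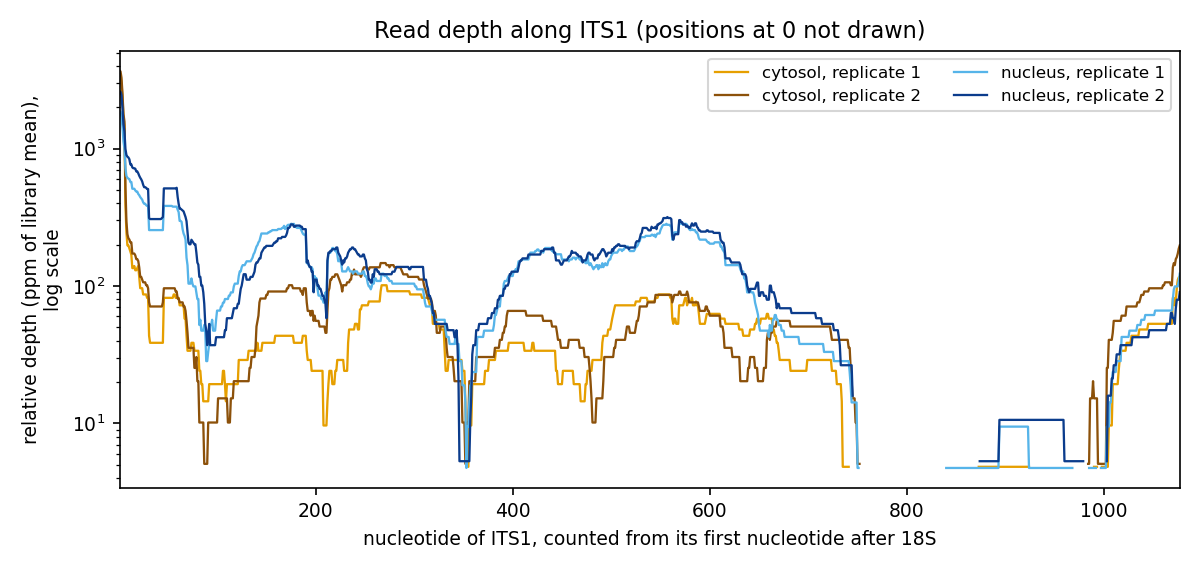
Relative depth (ppm of the library mean, log axis) at each nucleotide of ITS1, 1 line per library, with positions at 0 left undrawn. The nuclear lines lie above the cytosolic ones from nt 7 to 238 and from nt 364 to 649. Depth falls away after about nt 745, ahead of which cytosolic replicate 1 is already at a mean of 0.6 reads, and returns after nt 1003.

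The rise was not even along the spacer. At 629 of 1077 positions both nuclear libraries lay above both cytosolic ones and at 18 both lay below, against 44.0% and 32.2% of positions over the whole file. The positions above formed a few long runs, chiefly nt 7 to 238 and nt 364 to 649. Others, at nt 894 to 923 and nt 925 to 968, lay in a stretch with next to no reads. The positions below were nt 1 to 6 and 12 scattered ones from nt 990 to 1076. Neighbouring positions share reads, so these counts describe the profile and are not a test.

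ITS1 began with a short stretch in which the order of the fractions was the opposite of that in the rest. Over nt 1 to 6 the relative depth was 2550 and 2750 ppm in the cytosol, against 1502 and 2079 ppm in the nucleus, so every cytosolic value lay above every nuclear one. The last 6 nt of 18S had the same order, with 3945 and 4243 ppm against 2132 and 2932 ppm. From nt 7 to 100 it was turned around, with 70.3 and 83.4 ppm in the cytosol against 275.3 and 376.1 ppm in the nucleus, a ratio of 4.24. The split at nt 6 was chosen after the values were seen and has no test.

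In raw reads the change came within a few nucleotides. At nt 1 the depth was 710 and 731 reads in the cytosolic libraries, against 397 and 495 in the nuclear ones, the deepest point of ITS1 in each library. At nt 6 it was 306 and 312 against 213 and 253. At nt 7 it was 81 and 103 against 152 and 188, so the order had turned over a single step. By nt 10 depth was 5.77% and 6.02% of that at nt 1 in the cytosol, against 32.2% and 32.9% in the nucleus, and by nt 50 it was 2.39% and 2.60% against 20.4% and 19.6%. These percentages were alike between libraries of a fraction and did not overlap between fractions.

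**Figure D2:**
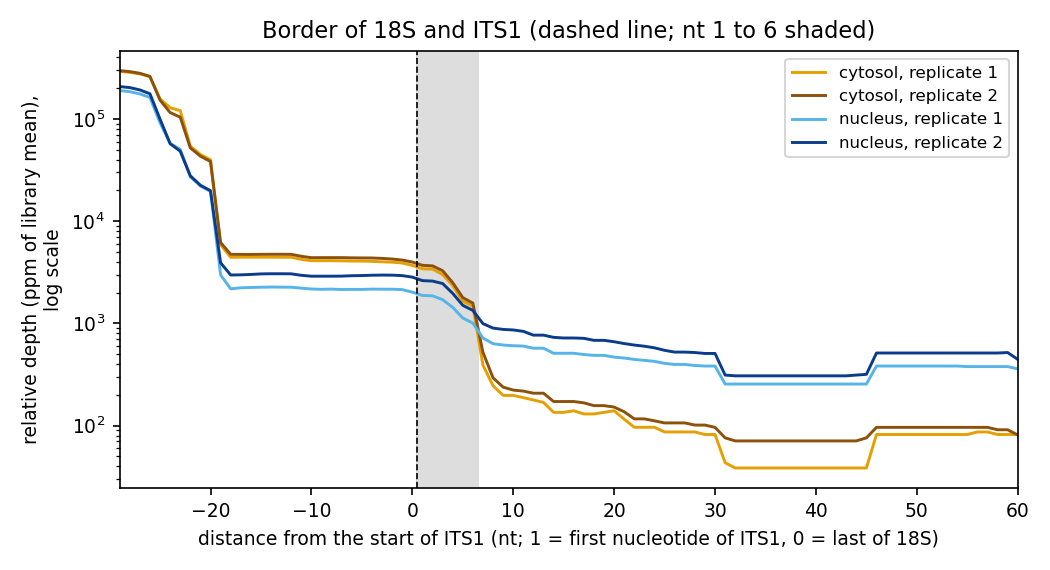
Relative depth (ppm of the library mean, log axis) from the end of 18S into ITS1, 1 line per library, with the border dashed and nt 1 to 6 shaded. The cytosolic lines run above the nuclear ones up to nt 6 and below them from nt 7.

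The positions from nt 1 to 6 held 27.95% and 23.3% of all ITS1 depth in the cytosolic libraries, against 7.17% and 8.69% in the nuclear ones. Without those 6 nt, which was decided after their values were known, the cytosolic libraries had a mean depth of 7.65 and 10.0 reads, against 23.1 and 23.1 in the nucleus, and the log2 difference of ITS1 was 1.42 in place of 1.11, a direction that the choice of these nucleotides fixed. Without the first and last 100 nt, irrespective of their values, it was 1.39 (adjusted p = 0.00475 in limma).

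The end of 18S next to the border was itself thinly covered. At 21 nt before ITS1 the depth was 8266 and 7568 reads in the cytosol, against 4145 and 3752 in the nucleus. At 20 nt before it, depth was 1221 and 1222 against 630 and 740, and at the last nucleotide of 18S it was 767 and 787 against 428 and 536.

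Farther in, depth showed a notch with straight sides in all 4 libraries. From nt 30 to nt 31 it fell from 17 to 9 and from 19 to 15 reads in the cytosol and from 81 to 54 and from 96 to 59 in the nucleus. At nt 46 it stood again at 17, 19, 81 and 97 reads. The lowest depth inside was 47.1% and 73.7% of that on both sides in the cytosol, against 66.7% and 60.1% in the nucleus, so the fractions overlapped. A depth table does not tell reads that skip these positions in their alignment from an absence of reads, so the notch need not be lower recovery. It was singled out after the values were seen.

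Windows of 100 nt were tested over the whole file with limma on log2(relative depth + 0.00001), a pseudocount of 10 ppm or about 2 reads. Folds below are ratios of mean relative depth without the pseudocount, while the log2 differences are means over libraries of values that include it, so the scales do not convert exactly. Of the 11 windows of ITS1, 9 passed the filter of a mean depth of at least 1 over all 4 libraries, and of these 5 rose in the nuclear libraries and 0 fell (0 also at an unadjusted p under 0.05). Over all 153 windows tested 36.6% were called higher and 22.2% lower. The median log2 difference was 0.80 over the 9 windows and 0.086 over all. In 7 of the 9 windows both nuclear libraries lay above both cytosolic ones, against 45.1% of all windows.

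The calls over the whole file moved with the scaling, from 56 higher and 34 lower to 47 and 47 with the median of ratios, 65 and 17 with scaling to 28S, and 40 and 48 with scaling to the 5'ETS. In ITS1 these scalings gave 5, 5 and 4 rises and 0 falls. The standard errors rest mostly on the trend fitted over all windows, with 41.1 prior degrees of freedom against 2 from the window itself. Without the trend the adjusted p-values in limma were far larger than those given below. They were 0.0021 at nt 401 to 500, 7.3e-04 at nt 501 to 600 and 0.0115 at nt 101 to 200. Without nuclear replicate 2, only 2 ITS1 windows rose, those at nt 401 to 500 and nt 501 to 600.

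**Figure D3:**
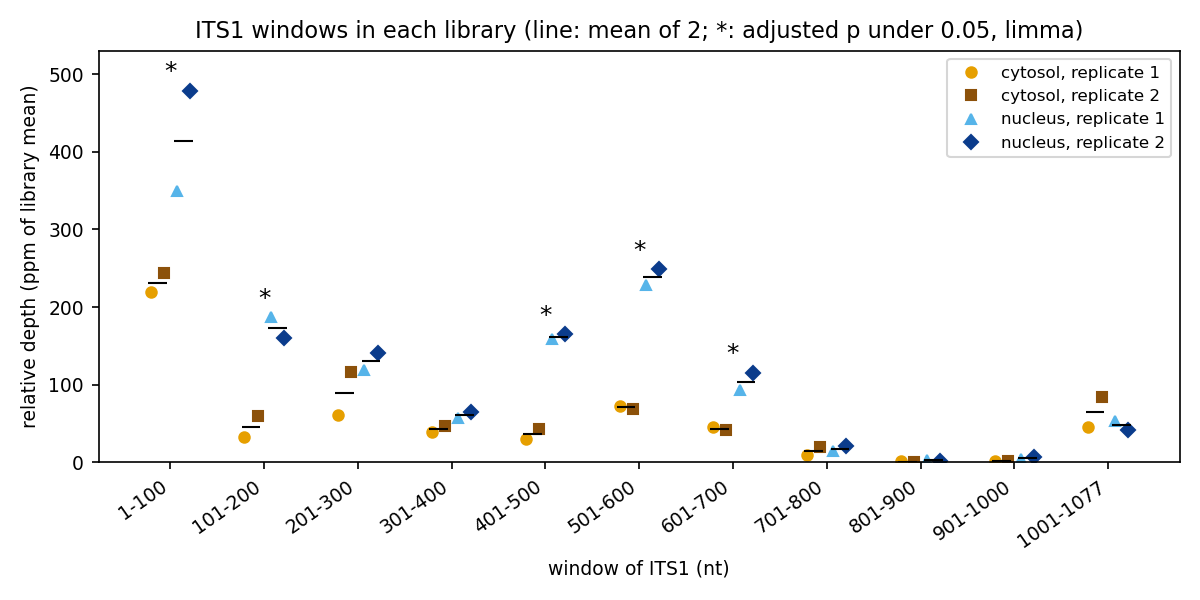
Relative depth (ppm of the library mean) of the 11 windows of ITS1, 1 point per library with a line at the mean of each fraction, and an asterisk over the 5 windows called by limma. The nuclear points stand clear of the cytosolic ones at nt 101 to 200 and from nt 401 to 700, and all points lie near 0 from nt 801 to 1000.

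The largest rise was at nt 401 to 500. Relative depth there was 30.3 and 43.4 ppm in the cytosolic libraries, against 158.8 and 165.0 ppm in the nuclear ones. The nuclear values were close together and far above both cytosolic ones, with means of 36.8 ± 9.25 and 161.9 ± 4.32 ppm (SD, n = 2). The nuclear mean was 4.40 times the cytosolic mean, and the fitted log2 difference was 1.89 (SE 0.28, adjusted p = 1.7e-07 in limma). The window had 84% G+C, with 53% C, the highest share of C among the 11 windows.

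The next window, nt 501 to 600, had the second highest relative depth of ITS1 over all libraries. It stood at 73.1 and 68.9 ppm in the cytosol, against 229.0 and 248.5 ppm in the nucleus, with means of 71.0 ± 2.96 and 238.8 ± 13.8 ppm (SD, n = 2). The libraries of each fraction differed by little beside the gap between the fractions, which was 3.36-fold (log2 difference 1.62, SE 0.29, adjusted p = 4.2e-06 in limma). It held the deepest nuclear points away from the borders, 61 reads at nt 569 in replicate 1 and 60 reads at nt 557 in replicate 2, within or at the ends of the capitals printed above. In the cytosol the deepest points lay elsewhere, with 21 reads at nt 267 and 29 reads at nt 266. These 2 windows of ITS1 stayed past the threshold in all alternatives run with windows of 100 nt.

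At nt 101 to 200 relative depth was 32.9 and 59.5 ppm in the cytosol, against 186.6 and 159.6 ppm in the nucleus. The cytosolic libraries were apart from each other, yet the gap to the nucleus was wider, at 3.75-fold (log2 difference 1.74, SE 0.29, adjusted p = 1.5e-06 in limma). Without nuclear replicate 1 or 2 the adjusted p was 0.0573 or 0.0503 at log2 differences of 1.63 and 1.85. The window at nt 601 to 700, with 45.03 and 41.7 ppm in the cytosol, against 92.8 and 115.6 ppm in the nucleus, rose 2.40-fold (log2 difference 1.09, adjusted p = 8.1e-04 in limma). Its call was lost without nuclear replicate 2 (adjusted p = 0.0503 in limma) and with window medians (log2 difference 0.56, adjusted p = 0.142).

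The first window, nt 1 to 100, was the deepest of ITS1 and had the weakest call. It stood at 219.1 and 243.5 ppm in the cytosol, against 348.9 and 478.2 ppm in the nucleus, a 1.79-fold difference (log2 difference 0.80, SE 0.31, adjusted p = 0.0238 in limma). The nuclear libraries were both higher but differed from each other by more than the cytosolic ones did. The call was lost without cytosolic replicate 1, cytosolic replicate 2 or nuclear replicate 2 (adjusted p of 0.127, 0.0564 and 0.142 in limma), with scaling to the 5'ETS (0.0589), with no filter (0.0600) and with a pseudocount of 0.01 (0.0577). As this window joins nt 1 to 6 with the rest, its value averages the opposite orders described above.

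Between the runs of higher nuclear depth lay windows with smaller differences. At nt 201 to 300 relative depth was 61.0 and 116.6 ppm in the cytosol, against 119.0 and 141.4 ppm in the nucleus. Cytosolic replicate 2 was thus almost level with nuclear replicate 1, and the log2 difference of 0.56 had an adjusted p of 0.108 in limma, or 0.98 and 0.0171 without that cytosolic library. At nt 301 to 400 it was 39.1 and 46.7 ppm against 57.8 and 65.0 ppm (log2 difference 0.44, adjusted p = 0.166 in limma). The fractions did not overlap in these 2 windows but came close in the first.

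Toward the other end neither of the 2 tested windows was called. At nt 701 to 800 relative depth was 9.29 and 20.4 ppm in the cytosol, against 14.9 and 20.8 ppm in the nucleus, overlapping values with a log2 difference of 0.19 (95% interval -0.36 to 0.74). In the last window, nt 1001 to 1077, it was 45.2 and 84.5 ppm in the cytosol, against 53.0 and 42.1 ppm in the nucleus. These overlapped too, and the log2 difference of -0.33 (95% interval -0.92 to 0.25, adjusted p = 0.328 in limma) was the single negative one in ITS1. It was 0.055 without cytosolic replicate 2, the deepest library there.

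Smaller windows described the rise on a finer scale. With windows of 50 nt, 10 of 17 tested in ITS1 rose and 0 fell, with standard errors that rest almost wholly on the trend (545.1 prior degrees of freedom). Over the whole file 118 of 298 such windows were called higher and 71 lower, so a call upward was common. The 10 in ITS1 were the 4 from nt 51 to 250, at 2.12 to 4.60 times the cytosolic depth, and the 6 from nt 351 to 650, at 1.98 to 5.58 times. The largest was at nt 451 to 500, where the mean was 28.3 ± 1.20 ppm in the cytosol, against 158.0 ± 11.8 ppm in the nucleus (SD, n = 2). Between the runs, nt 251 to 300 and nt 301 to 350 had ratios of 1.07 and 1.14 and were not called. The first 50 nt had a log2 difference of 0.56 (adjusted p = 0.133 in limma). That window includes nt 1 to 6, where the order was opposite, so nt 51 does not mark where the rise began.

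Most of the stretch from nt 753 to 1003 held next to no reads. Depth was 0 in every library at 92 positions of ITS1, of which 87 were the run at nt 753 to 839. A count of 0 allows up to 3 reads, or 14.2 to 15.9 ppm, for counting error alone, so a smaller depth was not detectable there. The windows at nt 801 to 900 and nt 901 to 1000 had mean depths of 0.28 and 0 and of 0.31 and 0.33 reads in the cytosol, and of 0.68 and 0.34 and of 1.03 and 1.38 in the nucleus. The limit above is for a single position and not for a window mean. Both windows missed the filter of a mean depth of at least 1 over all 4 libraries, so no fold is given. With no filter on depth, the window at nt 901 to 1000 was called higher (log2 difference 0.47, adjusted p = 0.0244 in limma) and that at nt 801 to 900 was not (0.23, adjusted p = 0.157).

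The empty run had 86.2% G+C, and the part of G+C content in its low depth was not tested. Over the windows of ITS1, G+C content and depth showed no clear order. The deepest window, nt 1 to 100, had 87% and the nearly empty one at nt 901 to 1000 had 69%, the lowest of all 11. Spearman's rho of G+C and relative depth over the 11 windows, which share libraries and reads at their edges, was -0.15 in the cytosol, against 0.073 in the nucleus. Among windows with at least 80% G+C the median relative depth in the nucleus was 111.6 ppm over the 6 of ITS1 and 20.2 ppm over the 32 of the other spacers, and in the cytosol 39.8 and 41.3 ppm. With at least 85% G+C it was 39.6 ppm over 4 of ITS1 and 11.7 ppm over 13 of the others in the nucleus. In the cytosol these medians were 28.9 and 7.55 ppm. These are descriptions.

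Abrupt changes of depth were sought between neighbouring stretches of 10 nt. Their log2 changes include the pseudocount of 10 ppm or about 2 reads, which makes changes at low depth smaller. The steepest fall was at the first border that could be scored, after nt 10, and belonged to the 18S border. Its log2 changes were -3.38 and -3.25 in the cytosol, against -1.14 and -1.13 in the nucleus. Depth itself dropped ahead of that point, as from nt 6 to nt 7, and hardly changed from nt 10 to nt 11. The second fall was after nt 745, ahead of the empty run. Depth went there from 0.6 and 6.6 reads to 0 and 1.3 in the cytosol and from 5.1 and 4.8 to 1.4 and 0 in the nucleus. The third was after nt 81, from 7.3 and 5.9 to 3.6 and 1.6 reads in the cytosol and from 20.6 and 36 to 9.3 and 14.7 in the nucleus. Its log2 changes were -0.72 and -1.14 in the cytosol, against -0.99 and -1.19 in the nucleus. For this step, unlike the first, the fractions thus overlapped, at cytosolic depths of a few reads. Site E lies in this part of ITS1, and the relation of the step to it was not tested.

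The steepest rise was after nt 1003, where depth returned from 0.6 and 1.3 to 2.9 and 9 reads in the cytosol and from 0.8 and 0.1 to 4 and 4.1 in the nucleus. The next were after nt 358, from 2.7 and 2.4 to 4 and 5.2 reads in the cytosol and from 3.1 and 1.3 to 7 and 8.4 in the nucleus, and after nt 212, from 3.6 and 10.2 to 4.7 and 22.2 reads in the cytosol and from 18.7 and 17.3 to 37.9 and 34.6 in the nucleus. All 3 rises were seen in every library, with the smallest log2 changes (0.89, 0.35 and 0.26, pseudocount included) in cytosolic replicate 1. The depths behind the first 2 are a few reads.

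At the 5.8S end the fractions overlapped over the last 10 nt of ITS1. At nt 1 of 5.8S both nuclear libraries lay below both cytosolic ones, in reads and in relative depth. Over the last 10 nt of ITS1 depth was 17.8 and 29.7 reads in the cytosol, against 19.8 and 13.1 in the nucleus, and at nt 1 of 5.8S it was 34 and 41 against 31 and 20. It then climbed within 5.8S, to 898 and 894 against 1056 and 663 reads at nt 10. Reads that joined ITS1 to 5.8S were thus few beside those of 5.8S, as at the 18S end.

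Against the other spacers ITS1 kept no constant proportion. In log2 ratios of mean depth, ITS1 over the 5'ETS was -0.25 and 0.011 in the cytosol, against 0.57 and 0.98 in the nucleus, so ITS1 was 1.86 times higher in the nucleus against the leader (log2 difference 0.89, or 1.65 with medians over positions). ITS1 over the 3'ETS was -0.13 and 0.26 in the cytosol, against 2.23 and 2.93 in the nucleus, a 5.71-fold difference. ITS1 over ITS2 went the other way, at -3.25 and -3.19 in the cytosol, against -3.70 and -3.85 in the nucleus, 1.47-fold lower. None of these ratios overlapped between the fractions, and each difference exceeded the spread of its libraries. When medians over positions were taken, the difference of ITS1 over ITS2 turned from -0.56 to 0.095, so its direction depends on the use of means.

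**Figure D4:**
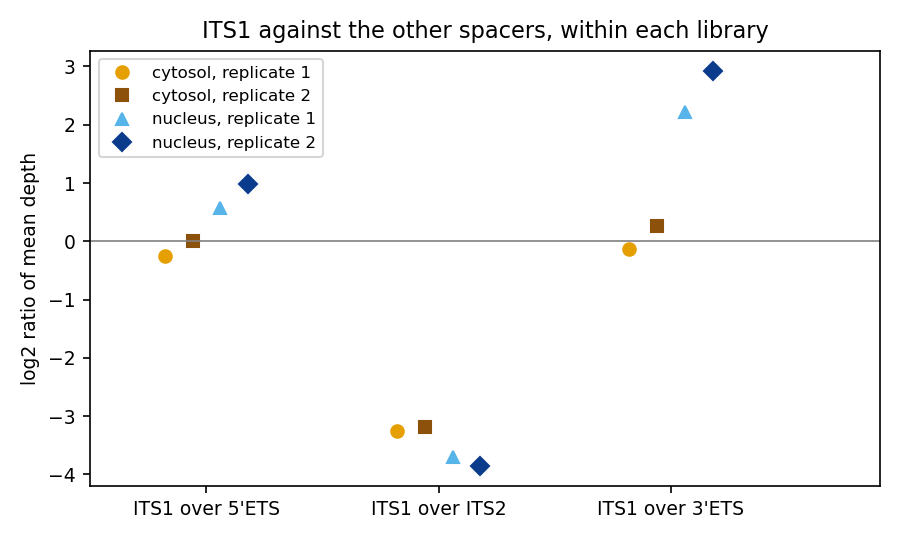
Log2 ratio of the mean depth of ITS1 over that of the 5'ETS, ITS2 and the 3'ETS, 1 point per library. The nuclear points lie above the cytosolic ones for the 5'ETS and the 3'ETS and below them for ITS2.

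Against its neighbours in the precursor ITS1 was higher in the nucleus as well. ITS1 over 18S had log2 ratios of -15.37 and -15.13 in the cytosol, against -14.59 and -14.44 in the nucleus, a 1.67-fold difference. ITS1 over 5.8S had -14.21 and -13.72 against -12.60 and -11.97, a 3.19-fold difference. The balance within ITS1, the part up to nt 538 over the rest, was 1.59 and 1.57 in the cytosol, against 1.61 and 1.65 in the nucleus, a difference of 0.050. Without nt 1 to 6 that difference was 0.50, an upward change that the choice of these nucleotides fixed. Without the first and last 100 nt, irrespective of their values, it was -0.082. For each of these 6 ratios the exact permutation p was 0.333, the smallest possible, and 0.333 after Benjamini-Hochberg adjustment over the 6.

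By windows, the spacers also differed in their counts of calls. In the same test 4 windows of the 5'ETS rose and 6 fell of 29 tested, 4 of 12 in ITS2 rose and 0 fell, and 0 of 4 in the 3'ETS rose and 3 fell, beside 5 and 0 of 9 in ITS1. The median log2 differences were -0.068, 0.47, -1.38 and 0.80 in this order. The difference between these counts was not tested.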

How the data were processed

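The deposited signal is read coverage at each position of rRNA reference sequences, in whole numbers without scaling of the libraries, per the file headers. The submitters' processing notes name cutadapt 1.5, Bowtie2 2.2.6 and SAMtools; the settings, read filters and strand use were not given in the sources used here. A table of this kind does not separate the copies of rDNA. The ITS1 members and the comparisons were chosen with earlier results of these data known.

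Depth was divided by the library's mean over all 15984 positions. Windows of 100 nt were tiled from the first nucleotide of each region, so that none crosses a border with a mature rRNA, and the 153 of 162 with a mean depth of at least 1 over all libraries were tested with limma 3.58.1 in R 4.3.3 (lmFit, eBayes with a trend, two-sided, Benjamini-Hochberg, threshold 0.05, pseudocount 0.00001). A pseudocount of 0.01 lies above the relative depth of every ITS1 window and was an alternative. The 10 regions were tested by limma without a trend on log2 mean relative depth, and ratios by two-sided exact permutation. Simulated data were used to check this window test. Every window of ITS1 is described or counted. Those with values in full are the 3 deepest, the 3 with the largest rise, the 3 with the lowest difference, the first and last, and other windows of ITS1 chosen after their values were seen. Alternatives were the scaling, pseudocount, filter, trend, medians, window size, trimmed ends, a replicate block and each library left out.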

Additional observations from a re-analysis of the deposited data

How the results depend on the processing

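The rise of ITS1 as a region kept its direction and its call in all alternatives run, at log2 differences of 0.89 (scaling to the 5'ETS) to 1.42 (without nt 1 to 6). The scalings moved log2 ratios by -0.19 (median of ratios), 0.19 (28S) and -0.22 (5'ETS). The 5 windows of ITS1 called higher became 10 with windows of 50 nt, of which there are more, and 2 to 5 with 1 library left out. They were 4 or 5 under the other settings, and no window was called lower in any. With no filter the count stayed at 5, but nt 1 to 100 was lost and nt 901 to 1000, at mean depths of 0.31 to 1.38 reads, was gained (log2 difference 0.47). The log2 difference at nt 701 to 800 was -0.016 with window medians and -0.14 to 0.52 with 1 library left out, and at nt 1001 to 1077 it was -0.72 to 0.055, the signs turning without cytosolic replicate 1 and 2, respectively. ITS1 over ITS2 turned to 0.095 with medians, and the part up to nt 538 over the rest to -0.082 without the first and last 100 nt. The cause was not tested.

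The libraries share replicate numbers, but the labels do not say that a number marks a shared culture. Deviations of same-numbered libraries had a correlation of -0.01 over 153 windows and of -0.46 over the 9 tested in ITS1. These values do not settle whether the numbers mark pairs, and they were not taken as such. With a replicate block 4 windows of ITS1 were called, that at nt 1 to 100 being lost (adjusted p = 0.105 in limma), and the region kept a log2 difference of 1.11 (adjusted p = 0.00512 in limma). The depth of ITS1 outside its first nucleotides was low, at a mean of 7.65 to 23.1 reads per position.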
